A study of Mus musculus with 9 samples.

Results

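Genes for ribosome building in the nucleolus, together with Myc, were followed from blood stem and progenitor cells to granulocyte-macrophage progenitors, and into progenitors that had lost nicastrin. The set was given as 38 gene symbols. A gene was read from the probe set (a group of short probes that gives 1 value) with the highest mean over the 9 arrays among those annotated with that symbol alone. This measured 37 of the 38 members, out of 18193 genes read the same way. Mrto4 was not analysed here, because its probe set carries several symbols. Of the 37, 27 had more than 1 probe set and 10 had a single probe set, which made 79 probe sets in all.

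Ribosomes are assembled in the nucleolus. RNA polymerase I transcribes the ribosomal RNA precursor there, small nucleolar ribonucleoprotein particles (snoRNPs) guide its chemical modification, and large sets of assembly factors cut and fold it into the 40S and 60S subunits. The transcription factor MYC is known to activate many of these genes, and MYC activity is tied to growth and to the exit of blood stem cells from quiescence.

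The cells came from mouse bone marrow sorted by surface markers. LSK cells, which lack lineage markers and carry cKit and Sca1, hold the stem cells and multipotent progenitors. GMP cells (granulocyte-macrophage progenitors) lack lineage markers and Sca1 and carry cKit, CD34 and FcgammaRII/III. The LSK WT and GMP WT groups were Ncstn flox/flox without Cre, and the GMP NcstnKO group was Ncstn flox/flox Mx1-cre+, with 3 arrays in each group. Ncstn encodes nicastrin, a subunit of the gamma-secretase protease that cleaves Notch receptors, and Mx1-cre is switched on by interferon in many cell types besides blood cells. Animals of all groups, controls included, received 3 injections of polyIC on alternate days at 20 mcg per g of body weight from 14 days of age. They were analysed 4 weeks later, at 6 weeks of age. The labels do not say that the arrays come from separate mice or that LSK and GMP cells came from different mice, so the p-values measure the spread between these arrays.

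Ncstn itself read 9.25 to 9.31 on the log2 intensity scale in GMP WT, 8.99 to 9.13 in LSK WT and 7.76 to 7.79 in GMP NcstnKO. In GMP WT against LSK WT, 4 of 4 measured stem cell genes fell and 4 of 4 primary granule genes rose. Of the genes of the gates, Fcgr3 rose by 1.10, while Kit and Cd34, which the GMP gate requires, fell by 0.49 and 0.40. The Sca1 gene Ly6a was not measured by a probe set of its own. Although LSK cells were sorted as lineage negative, genes of mature lineages were higher there, as given beside the first comparison. Some facts of the arrays touch the results below. The deposited arrays do not share a scale: the median intensity was 98.3 to 102.6 in LSK WT and 65.4 to 68.6 in the 6 GMP arrays. Sex transcripts (Xist and Eif2s3y) went against the labels in GMP WT arrays 2 and 3, labelled female, and in GMP NcstnKO arrays 2 and 3, labelled male. By label, all GMP WT arrays are female and GMP NcstnKO is mixed. By transcript, all GMP NcstnKO arrays are female and GMP WT is mixed. Sex thus differs between the GMP groups on either reading. LSK WT is mixed on both. Results are therefore also given for the arrays that match their labels, 3 of LSK WT and 1 of each GMP group. RNA integrity was read from Actb, as its 3′ probe set over its 5′ probe set on the log2 scale, and was 0.748 ± 0.108 (SD, n = 3) in LSK WT, 0.577 ± 0.111 in GMP WT and 0.899 ± 0.14 in GMP NcstnKO. Its difference between the GMP groups was 0.322 (exact 2-sided permutation test, p = 0.1, the smallest that 3 against 3 arrays allow). In bulk samples, fewer cells of a type and less RNA per cell cannot be told apart.

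Every measured member was well above background in all 9 arrays. Their log2 intensities ran from 8.62 to 13.56, against limits of 4.30 to 4.57 set by the 95th percentile of 27 bacterial control probe sets that were not spiked in. The members also varied little. Their range over the 9 arrays had a median of 0.51 log2 units, from 0.13 for Npm1 to 0.97 for Nop16, while the median over all 18193 genes was 0.77. The SD within a group had a median of 0.109 for the members and 0.148 for all genes. Array LSK WT 1 was the lowest within its group, with 5 of 37 members above their own mean over the 9 arrays, and GMP WT 2 the highest with 32 of 37. Both arrays are left out in turn below where they decide a count.

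**Figure D1:**
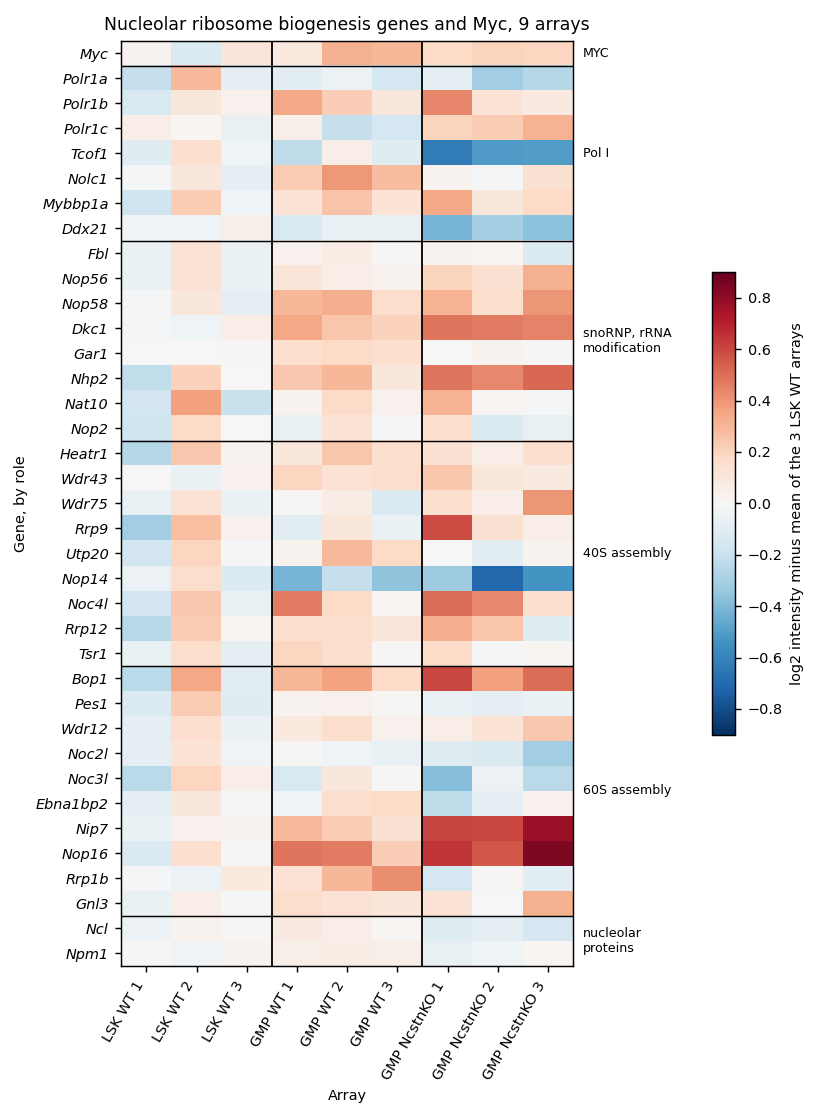
Log2 intensity of each of the 37 measured members (rows, grouped by role) on each of the 9 arrays (columns), as the difference from the mean of the 3 LSK WT arrays. Nop16 spans 0.97 log2 units over the arrays and Npm1 0.13, the widest and the narrowest rows.

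Promoter letters were searched for the sites that MYC and its partner MAX are known to bind. RefSeq windows of build GRCm38.p6, from 250 bases before to 50 bases after an annotated start, were at hand for 32 of the 38 members. These members had 36 windows, of which 22 were set on the start of the RefSeq gene itself. Myc, Bop1, Npm1, Fbl, Rrp12 and Tcof1 had no entry. The E-box CACGTG, the same on both strands, was found in 6 of the 32 members (18.8%), in Mybbp1a, Nop2, Pes1, Tsr1, Utp20 and Wdr43, against 8.09% of 27025 genes. None of these 6 genes passed the test in any of the 3 comparisons. The variant CACGCG, or CGCGTG on the other strand, was found in 9 (28.1%) against 10.5% of genes. CCGGAAG or CTTCCGG, the core that ETS factors are known to bind, was found in 11 (34.4%) against 9.93%. The 2 strands of CACGCG can overlap, as they do in Mybbp1a, and a gene was counted a single time for each motif. Such a match is a description of letters in a window and not a site shown to be bound.

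Nop16, Nip7, Nhp2 and Nolc1, which passed the test as higher in a comparison with LSK, hold the CACGCG variant, and their stretches are shown for that reason, 5′ to 3′ on the gene's own strand with the matched letters in capitals. The first base of the match lies at 29 for Nop16, -41 for Nip7, 4 for Nhp2 and -25 for Nolc1, counted from the start that the window was set on. The stretches lie at chr13:54590029-54590058 (minus strand), chr8:107056824-107056853 (plus), chr11:51619764-51619793 (plus) and chr19:46075810-46075839 (plus).
Nop16: ggagactattaaCACGCGgctctgagagcg
Nip7: aggctagagagaCACGCGttcgtggacccc
Nhp2: ggaggcggcggcCGCGTGgttcctctatgc
Nolc1: gcaggatgatgaCGCGTGtgggaccggaag
Nip7, Nhp2 and Nolc1 also hold the ETS core, shown in the next stretches at chr8:107056763-107056792, chr11:51619739-51619768 and chr19:46075822-46075851, all on the plus strand.
Nip7: gctttcggtccCCGGAAGtccgccacggta
Nhp2: cacttgaaaacCCGGAAGtgatgtcggagg
Nolc1: cgcgtgtgggaCCGGAAGcaacttctagat
In Nolc1 the CGCGTG and CCGGAAG matches are neighbours, with first bases at -25 and -14. In Nhp2 they lie on either side of the window's annotated start, at 4 and -23. Nip7 holds the ETS core again on the other strand, at 9. Ddx21, which fell in a comparison with LSK, holds CACGCG too, at 39. Mybbp1a, Noc2l, Pes1 and Polr1c also hold CACGCG and passed the test in no comparison. Likewise, Ebna1bp2, Gar1, Heatr1, Noc2l, Noc3l, Nop2, Polr1c and Tsr1 hold the ETS core and passed in none. Dkc1 and Nop58, which also passed as higher in a comparison with LSK, have windows that hold none of these motifs.

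As deposited, Myc passed the test in none of the 3 comparisons. Its log2 intensities were 12.66, 12.50 and 12.74 in LSK WT, 12.72, 12.95 and 12.93 in GMP WT, and 12.81, 12.83 and 12.82 in GMP NcstnKO. GMP WT arrays 2 and 3 lay above all LSK WT arrays and array 1 fell among them, so the groups overlapped. GMP WT minus LSK WT was 0.23 with a 95% interval from 0.01 to 0.45, and the limma adjusted p was 0.0878. GMP NcstnKO minus GMP WT was -0.04, with an interval from -0.26 to 0.18 and a limma adjusted p of 0.813. GMP NcstnKO minus LSK WT was 0.19 (limma adjusted p = 0.141), with all NcstnKO arrays above all LSK WT arrays. The differences from LSK WT depended on the scaling. With each array centred on its 75th percentile they were 0.58 in GMP WT (adjusted p = 0.00208) and 0.57 in GMP NcstnKO (adjusted p = 0.00136), both past the test, while quantile normalization gave 0.21 and 0.17. With limma-trend the first also passed (adjusted p = 0.0299). Between the GMP groups Myc passed in 0 of 20 alternatives.

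MYC acts as a dimer with MAX, and the list of this network held 12 genes besides Myc, all measured. Between LSK WT and GMP WT, 5 of 12 fell and 0 rose, with a median of -0.23 (0 rose at an unadjusted p under 0.05 or with limma-trend). Over all genes 30.5% fell and the median was -0.18, so the list as a whole was close to the background, and single genes stood further out. Mycn, the N-MYC gene that blood stem cells are known to use beside Myc, read 12.15, 12.12 and 11.94 in LSK WT and 9.43, 10.00 and 9.25 in GMP WT. The groups were far apart, at a difference of -2.51 ± 0.22 (SE; limma adjusted p = 0.000113), which is 5.69-fold lower. Mxd1, which encodes a MAX partner that represses MYC targets, fell by 1.45 (adjusted p = 0.000125). The related repressor genes Mxd4 and Mnt fell by 0.72 (adjusted p = 0.00184) and 0.73 (adjusted p = 0.00424). Mycn, Mxd1 and Mxd4 passed in 20 of 20 alternative settings, scalings included, and Mnt in 19. A fainter probe set repeated the Mycn fall at -1.56 (adjusted p over all probe sets = 0.000273), 2 others repeated that of Mxd1, and 1 repeated that of Mxd4. Further faint probe sets did not pass. They gave -0.22 for Mycn, -0.18 and 0.39 for Mxd4, and -0.18 for Mnt.

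In GMP NcstnKO against GMP WT, 1 of the 12 network genes fell and 0 rose (0 at an unadjusted p under 0.05, and 0 with limma-trend). Over all genes 3.26% fell and 2.44% rose. Mga, which encodes a MAX partner of a repressive complex, read 11.71, 11.85 and 11.79 in GMP WT and 11.29, 11.39 and 11.39 in GMP NcstnKO. The arrays did not overlap, with a difference of -0.42 (SE 0.08; limma adjusted p = 0.0271), and 8 of 20 alternatives kept the call. Other probe sets of Mga gave -0.16, -0.40, 0.32 and -0.75, none of them past the test. Mxd4 gave -0.48 (adjusted p = 0.0508), Mycn -0.65 (adjusted p = 0.117) and Mxd1 -0.32 (adjusted p = 0.186).

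**Figure D2:**
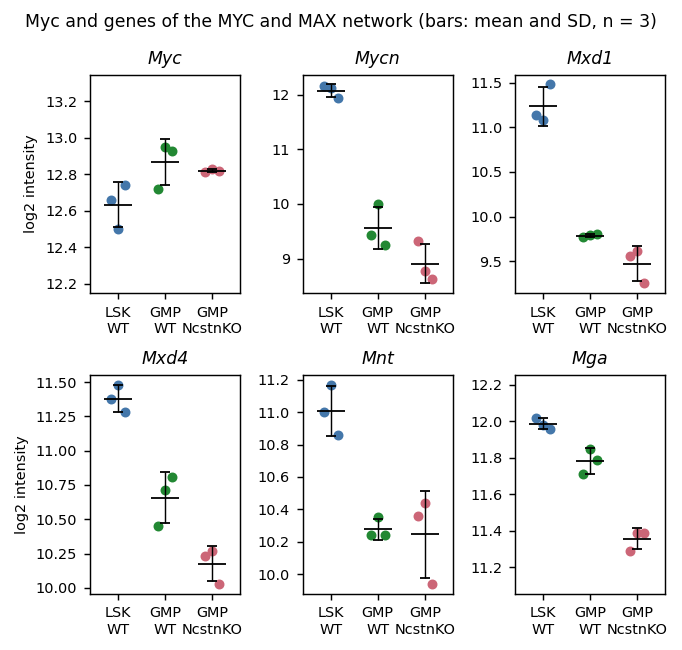
Log2 intensity of Myc and 5 genes of the MYC and MAX network on each array (points), with the mean and SD of the 3 arrays of a group; every panel has its own vertical axis. Myc stays between 12.50 and 12.95, while Mycn is 11.94 to 12.15 in LSK WT and at most 10.00 in both GMP groups.

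The first comparison asked how the nucleolar genes differ between stem-rich LSK cells and GMP of WT mice. As deposited, 3 of 37 members rose in GMP WT and 0 fell (1 at an unadjusted p under 0.05, 0 with limma-trend). Over all genes, 7.48% rose and 30.5% fell, so the members' share of rises was near the background. The median member difference was 0.11, with a range from -0.33 to 0.39, against -0.18 for all genes, and 36 of 37 members lay above that all-gene median. The deposited scale enters this directly. With quantile normalization, 10 members rose and 0 fell (19.8% and 15.4% of all genes), with medians of 0.19 and 0.05. With each array centred on its 75th percentile, 30 rose and 0 fell (32.7% and 14.3% of all genes), with medians of 0.46 and 0.17. Relative to the all-gene median, the member median was 0.29, 0.14 and 0.29 under the 3 scalings.

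Genes of other cell types moved with this comparison. All 9 late neutrophil genes fell in GMP WT, with summed intensities of 67653 to 90492 in LSK WT and 33025 to 43617 in GMP WT. All 5 B cell genes fell, with sums of 6361 to 10576 and 2540 to 3284, and so did 4 of 5 T and NK cell genes, with sums of 292 to 420 and 116 to 160. Of 10 erythroid genes 4 fell, with sums of 40321 to 44405 and 21519 to 34448, and of 5 macrophage genes 2 fell, with sums of 1779 to 2473 and 1748 to 2895. The part of these cells, and of the scale, in the members' values was not tested.

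**Figure D3:**
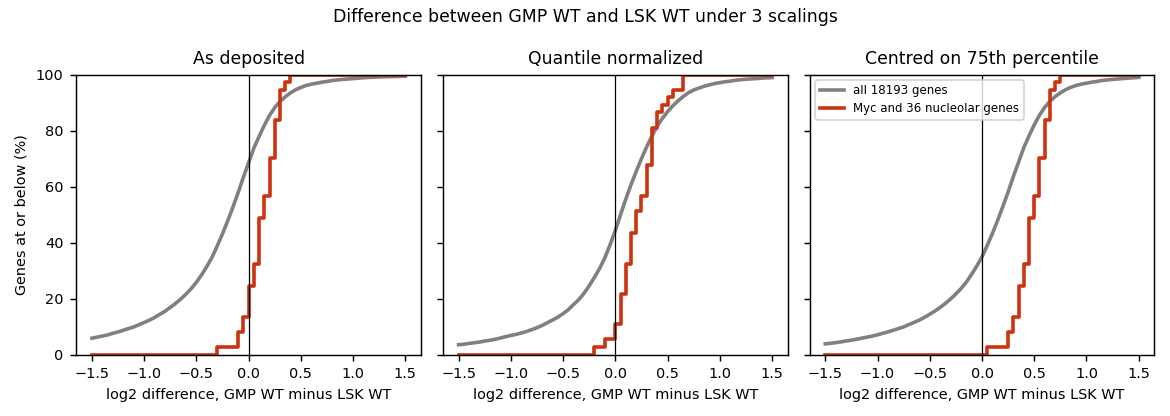
Cumulative share of genes (vertical axis, percent) at or below each log2 difference between GMP WT and LSK WT, for the members (red) and all 18193 genes (grey), under 3 scalings of the arrays. The red line is steeper than the grey one, and both move with the scaling: the member median is 0.11, 0.19 and 0.46.

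The 3 genes that rose belong to 3 steps of the pathway. Nop16, a 60S assembly factor, read 9.80, 10.08 and 9.91 in LSK WT and 10.41, 10.40 and 10.15 in GMP WT. Its groups did not overlap, at a difference of 0.39 (SE 0.12; limma adjusted p = 0.032). With the replicate number as a block, which pairs LSK WT with GMP WT arrays, this call was lost (adjusted p = 0.0604).

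Nolc1, a phosphoprotein that links RNA polymerase I with snoRNPs, read 11.80, 11.91 and 11.72 in LSK WT and 12.04, 12.20 and 12.09 in GMP WT. All GMP WT arrays were higher, by 0.30 on average (SE 0.09; limma adjusted p = 0.0269). A second Nolc1 probe set of similar brightness ran the other way, at -0.27 (adjusted p over all probe sets = 0.066), and the third gave 0.20. Averaged over its probe sets the Nolc1 call was lost.

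Dkc1, the pseudouridine synthase of H/ACA snoRNPs, read 12.30, 12.27 and 12.37 in LSK WT and 12.66, 12.56 and 12.52 in GMP WT. The difference was 0.27 (SE 0.08; limma adjusted p = 0.0242) with no overlap. Of its other probe sets, one gave 0.53 (adjusted p over all probe sets = 0.00435) and the other -0.02.

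These calls depended on single arrays. No member was called higher without LSK WT 1 or without GMP WT 2, and only 1 without LSK WT 3. Fewer of all genes were called higher then too, at 944, 905 and 1183 of 18193, beside 1360 with all 9 arrays. In the arrays that match their sex labels, with 1 GMP WT array, the median member difference was 0.09. Nolc1, Dkc1 and Nop16 passed in 12, 13 and 12 of 20 alternatives.

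By role and as deposited, the snoRNP and RNA modification genes had 8 of 8 differences above 0 and a median of 0.12. Over all members 28 of 37 were above 0, with 33 under quantile normalization and 37 under 75th percentile centring. The sign counts by role given here thus hold for the deposited scale only. Beside Dkc1, Nop58, a core protein of box C/D snoRNPs, gave 0.26 (limma adjusted p = 0.0603) without overlap, and Nhp2 and Gar1, the H/ACA partners of Dkc1, gave 0.22 and 0.16. Fbl, the methyltransferase of box C/D snoRNPs, read 13.18, 13.36 and 13.18 in LSK WT, 13.28, 13.31 and 13.25 in GMP WT, and 13.27, 13.26 and 13.12 in GMP NcstnKO. Its groups overlapped throughout, with differences of 0.04 in GMP WT and -0.02 in GMP NcstnKO from LSK WT.

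The 10 genes of 60S assembly had a median of 0.12, with 8 positive. Rrp1b, a nucleolar factor of 60S processing, gave 0.28 (limma adjusted p = 0.0553), and Nip7, which acts in 60S maturation, gave 0.22 (adjusted p = 0.0785). Bop1, Pes1 and Wdr12, which form the PeBoW complex, gave 0.28, 0.03 and 0.10, none past the test.

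Of the 9 genes for the small subunit processome and 40S assembly, 6 were positive and none passed, with a median of 0.14. The lowest of all members was in this group: Nop14, a processome component, read 11.20, 11.41 and 11.13 in LSK WT and 10.83, 11.04 and 10.89 in GMP WT. The arrays did not overlap, but the difference of -0.33 did not pass (limma adjusted p = 0.0653).

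Of the 7 genes for RNA polymerase I and its nucleolar transcription, 4 were negative as deposited and the median was -0.09. Under 75th percentile centring 0 of the 37 members were negative. The polymerase subunit genes Polr1a, Polr1b and Polr1c gave -0.10, 0.22 and -0.11, and Tcof1, which encodes the polymerase I cofactor treacle, gave -0.09. Fainter Polr1a probe sets above background passed over all probe sets in opposite directions, 0.43 (adjusted p = 0.0393) and -0.37 (adjusted p = 0.0367), so Polr1a has no single direction here.

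Ncl and Npm1 encode nucleolin and nucleophosmin, the abundant chaperone-like proteins of the nucleolus. Ncl read 12.91, 12.99 and 12.97 in LSK WT, 13.04, 13.02 and 12.98 in GMP WT, and 12.85, 12.88 and 12.81 in GMP NcstnKO. Npm1 read 13.50, 13.46 and 13.52 in LSK WT, 13.54, 13.56 and 13.54 in GMP WT, and 13.42, 13.45 and 13.51 in GMP NcstnKO. The arrays of both genes lay close together, and the differences between GMP WT and LSK WT were 0.06 for Ncl and 0.05 for Npm1. Such strong signals can be compressed on arrays, and compression was not tested.

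The second comparison asked what loss of nicastrin did to these genes within GMP. Here 1 member rose and 1 fell, against 2.44% and 3.26% of all genes, which is near the background. The median member difference was -0.03 (range -0.45 to 0.44), with 16 positive and 21 negative, beside 0.06 for all genes. The arrays of the groups did not overlap for 7 members on the higher side and 9 on the lower side, against 18.5% and 13.4% of all genes. For all 37 members the 95% interval excluded a difference of 2-fold or more, as it did for 88.3% of all genes. For 33 members it excluded 1.5-fold, as it did for 62.4% of all genes. With the Actb ratio as a covariate, it excluded 1.5-fold for 15 members and 30.5% of all genes.

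Nip7 was the member that rose. It read 11.97, 11.91 and 11.82 in GMP WT and 12.29, 12.28 and 12.46 in GMP NcstnKO. All NcstnKO arrays were higher, by 0.44 (SE 0.09; limma adjusted p = 0.0304), which is 1.36-fold. A second Nip7 probe set gave 0.14 (adjusted p over all probe sets = 0.822), with 1 NcstnKO array at 11.84 and the others at 10.71 and 10.62.

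Tcof1 was the member that fell. It read 11.54, 11.83 and 11.66 in GMP WT and 11.14, 11.26 and 11.27 in GMP NcstnKO. All NcstnKO arrays were lower, by 0.45 on average (a difference of -0.45, SE 0.11; limma adjusted p = 0.0458), which is 1.37-fold. Its 2 other probe sets had the same sign, at -0.39 (adjusted p over all probe sets = 0.163) and -0.43 (adjusted p = 0.0502).

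Both calls sat close to the threshold. Nip7 passed in 7 and Tcof1 in 4 of 20 alternatives, and both were lost when any GMP array was left out. Fewer of all genes passed then too, down to 0 higher and 2 lower of 18193 without GMP WT 3. Tcof1 was also lost without LSK WT 1 or LSK WT 3. With only the arrays that match their sex labels, 1 in each GMP group, the median was 0.04. With limma-trend, which lets the assumed spread follow the signal, 3 members rose and 5 fell, beside 579 and 754 of 18193 genes.

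The next members by p had values just outside the threshold. Polr1c, a subunit shared by RNA polymerases I and III, read 11.56, 11.30 and 11.35 in GMP WT and 11.71, 11.74 and 11.82 in GMP NcstnKO, a difference of 0.35 (limma adjusted p = 0.0629). Its arrays did not overlap, and its other probe set gave 0.30. Rrp1b read 11.95, 12.12 and 12.24 in GMP WT and 11.66, 11.83 and 11.72 in GMP NcstnKO, a difference of -0.36 (limma adjusted p = 0.0675). Its arrays did not overlap either, but its other probe sets gave -0.07 and 0.52, so they disagree on the direction.

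Ddx21, an RNA helicase of polymerase I transcription and ribosomal RNA processing, read 12.64, 12.71 and 12.71 in GMP WT and 12.36, 12.48 and 12.41 in GMP NcstnKO. The difference of -0.27 did not pass (limma adjusted p = 0.0699), and its other probe set gave -0.37. Nolc1 read 11.84, 11.79 and 11.95 in GMP NcstnKO, below all GMP WT arrays, at -0.25 (adjusted p = 0.129). Its other probe sets gave -0.27 and -0.23.

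Within the polymerase I group, 5 of 7 members were thus negative, with a median of -0.12. The snoRNP genes had a median of 0.03, the 40S genes -0.02 and the 60S genes -0.04. The 2 abundant nucleolar genes were both lower without overlap, with a median of -0.13, and neither passed. For Npm1 the difference was -0.09 (limma adjusted p = 0.496). Ncl gave -0.17 (limma adjusted p = 0.193) without overlap. Its 5 probe sets were all lower in GMP NcstnKO, and the faintest, at -0.67, passed over all probe sets (adjusted p = 0.0342), while another at -0.38 did not (adjusted p = 0.052).

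**Figure D4:**
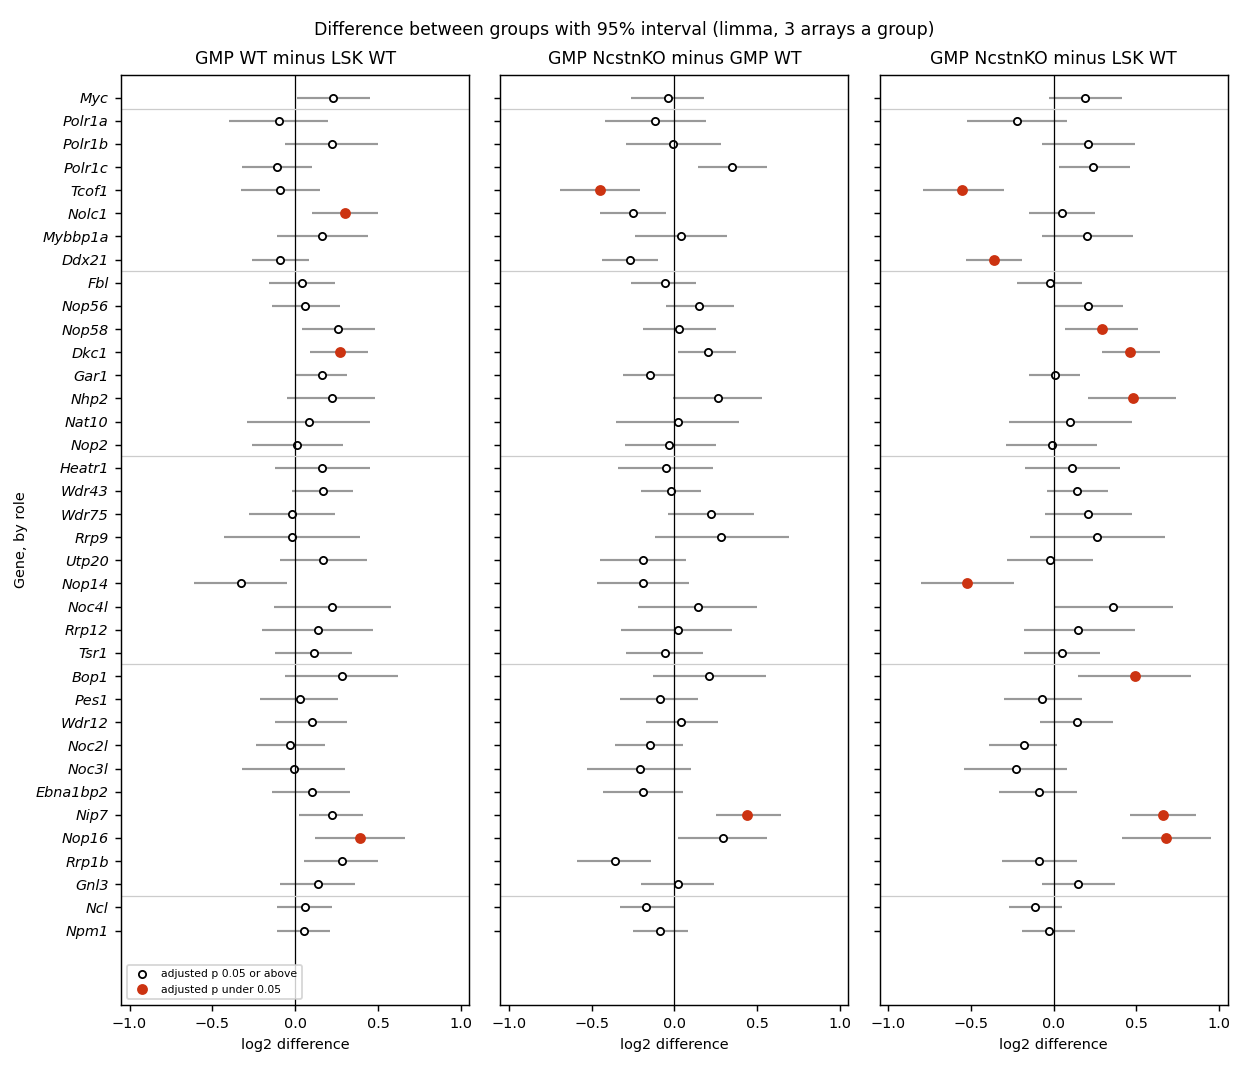
Log2 difference (points) with its 95% interval (lines) for each member, ordered by role, in the 3 comparisons; filled red points passed the limma test. Red points number 3 in GMP WT against LSK WT, 2 in GMP NcstnKO against GMP WT and 9 in GMP NcstnKO against LSK WT, and no interval reaches 1.0.

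Some markers of other cells, and RNA integrity, moved with this comparison, where 2.44% of all genes rose and 3.26% fell. Of 10 measured erythroid genes 6 fell in GMP NcstnKO, and their summed intensity was 21519 to 34448 in GMP WT and 12033 to 15909 in GMP NcstnKO, with Hba-a1 at background in all groups. Of 9 late neutrophil genes 1 rose, with sums of 33025 to 43617 and 46901 to 53272. Of 5 macrophage genes 3 fell, with sums of 1748 to 2895 and 1438 to 3492, which overlap. Of 5 B cell genes and of 5 T and NK cell genes, 0 passed. With the Actb ratio in the model no member passed in this comparison, and neither did any of the 18193 genes. The median member difference was then -0.16. The part of these differences in the members' values was otherwise not tested.

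The third comparison set GMP NcstnKO against LSK WT, which adds the cell type to the genotype and shares arrays with both other comparisons. Here 6 members rose and 3 fell, beside 14.6% and 32.3% of all genes, so the share of rises was near the background. The median was 0.11 for the members (range -0.55 to 0.68) and -0.12 for all genes. With the arrays centred on their 75th percentile, 31 rose and 0 fell, beside 7959 and 3205 of 18193 genes. With the label-matching arrays, 1 in each GMP group, Nip7 gave 0.61.

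Among the 6, Nop16 and Nip7 of 60S assembly stood furthest from LSK WT. Nop16 read 10.57, 10.49 and 10.77 in GMP NcstnKO, above all LSK WT arrays, by 0.68 (SE 0.12; limma adjusted p = 0.00187). A second Nop16 probe set gave -0.05. Nip7 read 11.62, 11.72 and 11.71 in LSK WT, and its NcstnKO arrays were higher by 0.66 (SE 0.09; adjusted p = 0.000415). Its second probe set gave -0.29, and averaged over both the Nip7 call was lost. For both genes the rise was thus seen on the brighter probe set and not on the fainter.

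Bop1, the PeBoW subunit, read 10.07, 10.66 and 10.21 in LSK WT and 10.91, 10.68 and 10.81 in GMP NcstnKO. The groups did not overlap, although LSK WT 2 came just under the lowest NcstnKO array, and the difference was 0.49 (limma adjusted p = 0.0257). Its call was lost without LSK WT 1 or 3 and without NcstnKO 1 or 3.

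The snoRNP genes gave the other 3. Dkc1 read 12.79, 12.78 and 12.76 in GMP NcstnKO and was higher than in LSK WT by 0.46 (SE 0.08; limma adjusted p = 0.00129). Its other probe sets gave 0.55 (adjusted p over all probe sets = 0.00259) and 0.01. Nhp2, which sits in the same H/ACA particle, read 11.61, 12.04 and 11.83 in LSK WT and 12.31, 12.26 and 12.35 in GMP NcstnKO. Its difference was 0.48 (adjusted p = 0.00964), and its second probe set repeated it at 0.70 (adjusted p over all probe sets = 0.00344). Nop58 read 11.58, 11.69 and 11.50 in LSK WT and 11.90, 11.75 and 11.99 in GMP NcstnKO, a difference of 0.29 (adjusted p = 0.0357) that passed in 10 of 20 alternatives.

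The 3 that fell were Tcof1, Nop14 and Ddx21. Tcof1 read 11.66, 11.92 and 11.73 in LSK WT, above all NcstnKO arrays, and its difference was -0.55 (SE 0.11; limma adjusted p = 0.00304). Both other probe sets passed too, at -0.61 and -0.47. Nop14 read 10.93, 10.54 and 10.71 in GMP NcstnKO, below all LSK WT arrays, at -0.52 (adjusted p = 0.00828), and has no second probe set. Ddx21 read 12.75, 12.75 and 12.83 in LSK WT, again without overlap, at -0.36 (adjusted p = 0.00435), and its second probe set gave -0.34 (adjusted p over all probe sets = 0.0259). With 75th percentile centring, Tcof1 and Nop14 stayed negative but lost the call, and Ddx21 gave 0.02. Fainter probe sets of members that were not called here also passed over all probe sets: Nolc1 at -0.54 (adjusted p = 0.00269), Rrp1b at 0.89 (adjusted p = 0.0116) and Ncl at -0.68 (adjusted p = 0.00205) and -0.37 (adjusted p = 0.00725). The others above background were Noc4l at 0.47 (adjusted p = 0.0348), Polr1a at -0.56 (adjusted p = 0.00474), Tsr1 at -0.49 (adjusted p = 0.00338) and Wdr12 at -0.63 (adjusted p = 0.00874). The probe sets used for Nolc1, Rrp1b, Tsr1 and Wdr12 had the opposite sign, at 0.05, -0.09, 0.05 and 0.14.

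**Figure D5:**
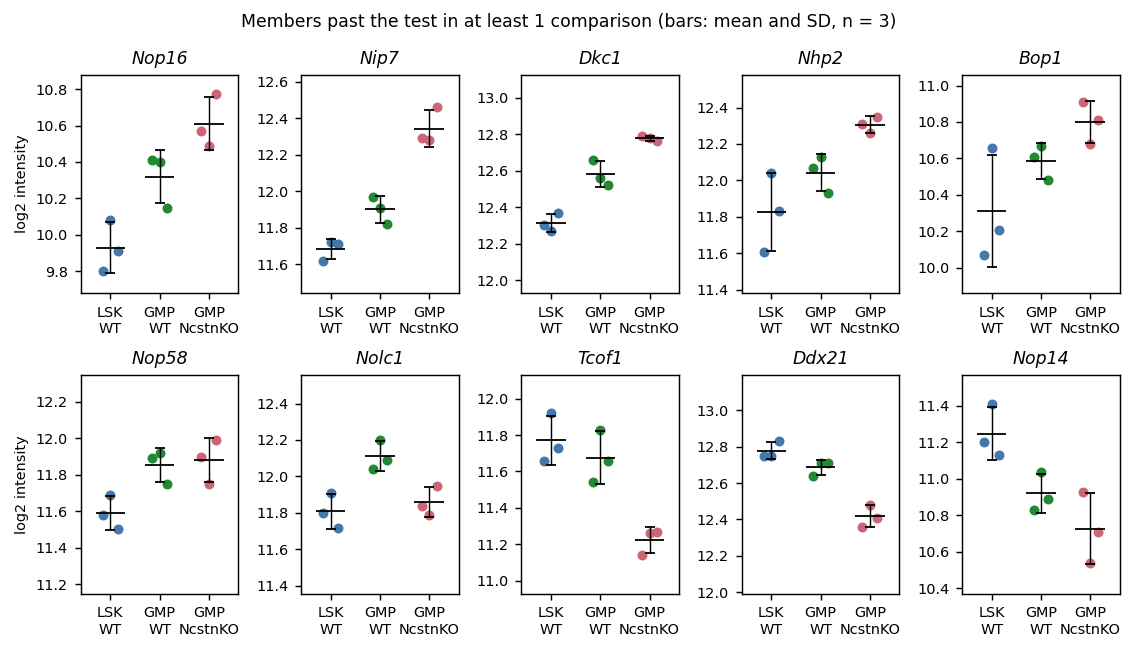
Log2 intensity on each array (points), with the mean and SD of the 3 arrays of a group, for the 10 members called in at least 1 comparison; every panel has its own vertical axis. Dkc1, Nhp2, Nop58, Nop16, Nip7 and Bop1 have their lowest group mean in LSK WT, Nolc1 its highest in GMP WT, and Tcof1, Ddx21 and Nop14 their lowest in GMP NcstnKO.

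The members not yet described passed in none of the 3 comparisons. In the polymerase I group, Polr1b gave -0.01 and Mybbp1a, a MYB-binding nucleolar protein gene, gave 0.04 between the GMP groups, after 0.22 and 0.16 between LSK WT and GMP WT. Polr1a gave -0.12 between the GMP groups.

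Among the snoRNP genes, Nop56, the box C/D partner of Nop58, gave 0.06 in GMP WT against LSK WT and 0.15 in GMP NcstnKO against GMP WT. Nat10, the RNA acetyltransferase gene, gave 0.08 and 0.02, and Nop2, an RNA methyltransferase gene, gave 0.01 and -0.03. Gar1 read 12.62, 12.62 and 12.63 in LSK WT, 12.77, 12.80 and 12.77 in GMP WT, and 12.62, 12.65 and 12.63 in GMP NcstnKO. GMP WT thus lay above both other groups without overlap, yet 0.16 (limma adjusted p = 0.0967) and -0.15 (adjusted p = 0.217) did not pass.

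In the 40S group, the processome genes Heatr1, Wdr43, Wdr75, Utp20 and Rrp9 gave 0.16, 0.17, -0.02, 0.17 and -0.02 in GMP WT against LSK WT. The same genes gave -0.05, -0.02, 0.22, -0.19 and 0.28 in GMP NcstnKO against GMP WT. Noc4l, Rrp12 and Tsr1, which act in 40S maturation and export, gave 0.22, 0.14 and 0.11 in the first comparison and 0.14, 0.02 and -0.06 in the second. These comparisons share the GMP WT arrays.

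In the 60S group, Noc2l and Noc3l, whose products act together in early 60S particles, gave -0.03 and -0.01 in GMP WT against LSK WT, and -0.15 and -0.21 in GMP NcstnKO against GMP WT. Ebna1bp2 gave 0.10 and -0.19, Gnl3, which encodes the GTPase nucleostemin, 0.14 and 0.02, Pes1 0.03 and -0.09, and Wdr12 0.10 and 0.04. The last pair belongs with Bop1 to PeBoW, and Bop1 gave 0.21 between the GMP groups.

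For genes with several probe sets, the fainter ones gave a check that the choice of the brightest did not use. Of 38 such probe sets above background, 25 had the sign of the brightest in GMP WT against LSK WT, 29 in GMP NcstnKO against GMP WT and 29 in GMP NcstnKO against LSK WT. Over all 34945 probe sets tested together, 4, 1 and 13 of the 38 passed. The probe sets used for Dkc1, Fbl, Gar1, Nhp2, Nop56, Polr1c, Tsr1 and Wdr43 carry the array's suffix for probes shared by several transcripts, and that for Noc4l the suffix for probes that may cross-hybridize.

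Further genes of the same machinery were read from lists. Their counts stand beside 7.48% of all genes rising and 30.5% falling in GMP WT against LSK WT, and 2.44% and 3.26% in GMP NcstnKO against GMP WT. Of 12 further polymerase I genes, 0 rose and 1 fell between LSK WT and GMP WT (0 and 2 at an unadjusted p under 0.05, 0 and 2 with limma-trend). The one that fell was Taf1c, a subunit of the promoter selectivity factor, at -0.67 (limma adjusted p = 0.00721). In GMP NcstnKO against GMP WT 0 passed (2 higher and 2 lower at an unadjusted p under 0.05, 1 higher with limma-trend), and the smallest p belonged to Polr1e at 0.40 (adjusted p = 0.0668).

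Of 36 further small subunit processome genes, 2 rose and 1 fell between LSK WT and GMP WT. Nol10 rose by 1.33 (limma adjusted p = 0.0149), Krr1 rose by 0.26 (adjusted p = 0.0219) and Utp6 fell by 0.40 (adjusted p = 0.00762). In GMP NcstnKO against GMP WT 1 fell and 0 rose (3 at an unadjusted p under 0.05, 0 with limma-trend). That gene was Bms1, a GTPase of 40S assembly, at -0.57 (adjusted p = 0.0415).

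Of 38 further 60S genes, 2 rose and 1 fell between LSK WT and GMP WT: Gtpbp4 at 0.31, Pelp1 at 0.41 and Nsa2 at -0.25. Nvl, an ATPase of 60S release, fell in GMP NcstnKO by 0.51 (limma adjusted p = 0.0245), and 0 rose (3 at an unadjusted p under 0.05, 0 with limma-trend). Of 20 further snoRNP and RNA processing genes, Exosc5 of the exosome rose and the helicase gene Ruvbl1 fell in GMP WT, at 0.31 and -0.33. Znhit3, a box C/D assembly factor, rose in GMP NcstnKO by 0.71 (adjusted p = 0.0382), and 0 fell (2 at an unadjusted p under 0.05, 0 with limma-trend). Bms1, Nvl and Znhit3 passed in 5, 10 and 6 of 20 alternatives.

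More genes of these lists passed in GMP NcstnKO against LSK WT, where 14.6% of all genes rose and 32.3% fell. In the polymerase I list 2 rose and 4 fell, among the processome genes 6 rose and 7 fell, among the 60S genes 8 rose and 5 fell, and among the snoRNP genes 3 rose and 4 fell.

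Of 26 measured MYC targets outside the nucleolus, 6 rose and 1 fell between LSK WT and GMP WT, beside 7.48% and 30.5% of all genes. The difference of this count from that of the members was not tested. Nme1, a nucleoside diphosphate kinase gene, rose by 0.38 (limma adjusted p = 0.00529), Shmt1 of serine metabolism by 0.57 (adjusted p = 0.0105) and the translation initiation gene Eif3b by 0.35 (adjusted p = 0.0194). The one that fell, Tert, was at background in both groups. In GMP NcstnKO against GMP WT 0 of 26 passed (1 higher and 3 lower at an unadjusted p under 0.05, 1 lower with limma-trend), where 2.44% of all genes rose and 3.26% fell. Against LSK WT, 5 rose and 3 fell in GMP NcstnKO, beside 14.6% and 32.3% of all genes.

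Stalled ribosome building is known to reach p53 through free ribosomal proteins that bind MDM2, so p53 genes were read beside the members. Of 10 measured, 5 fell and 0 rose between LSK WT and GMP WT (1 at an unadjusted p under 0.05, 1 with limma-trend). Their median was -0.48, beside 30.5% of all genes falling and an all-gene median of -0.18. Zmat3, a p53 target that encodes a zinc finger RNA-binding protein, read 9.35, 9.49 and 9.55 in LSK WT, 8.06, 7.89 and 8.50 in GMP WT and 6.89, 7.16 and 7.11 in GMP NcstnKO. The 3 groups were fully separate. Its difference was -1.31 for GMP WT against LSK WT (limma adjusted p = 0.000394) and -1.10 for GMP NcstnKO against GMP WT (adjusted p = 0.0194), comparisons that share the GMP WT arrays. Zmat3 was the only one of the 10 to pass in the second, with 0 rising (1 at an unadjusted p under 0.05, 0 with limma-trend), and 14 of 20 alternatives kept its call. Of all genes, 3.26% fell and 2.44% rose in GMP NcstnKO against GMP WT. Sesn2, Bbc3 and Rrm2b, further p53 targets, fell in GMP WT by 0.81 (adjusted p = 0.000961), 1.04 (adjusted p = 0.00208) and 0.68 (adjusted p = 0.00476). Quantile normalization ended the calls of Sesn2 and Bbc3, and centring that of Rrm2b. Pmaip1, the p53 target that encodes the death protein NOXA, went the other way. It read 8.91, 8.64 and 9.13 in LSK WT, 10.30, 9.89 and 9.39 in GMP WT and 10.22, 11.16 and 11.68 in GMP NcstnKO. The 0.97 of GMP WT over LSK WT (limma adjusted p = 0.0632) and the 1.16 of GMP NcstnKO over GMP WT (adjusted p = 0.0937) did not pass, and the arrays of the GMP groups overlapped. Against LSK WT it rose in GMP NcstnKO by 2.13 (adjusted p = 0.00152), the only rise of the list in that comparison, where 6 of 10 fell. Of all genes, 14.6% rose and 32.3% fell there.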

How the data were processed

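RNA of 9 arrays was analysed, 3 each of LSK WT, GMP WT and GMP NcstnKO. Per the labels' protocols, 5 ng of RNA was amplified and the cDNA carried a biotin label. In the deposited table each probe set has a linear intensity, which the authors made with RMA per the submitters' processing notes, with no version and without saying whether all arrays were normalized together. From the 45101 probe sets, log2 was taken and 1 probe set kept per gene symbol (the brightest). Group means over all 9 arrays were compared by the lmFit and eBayes functions of limma 3.58.1 (R 4.3.3; 2-sided, 6 residual degrees of freedom). Calls needed an adjusted p below 0.05, by Benjamini-Hochberg across 18193 genes, and probe sets were adjusted over 34945. "Rose" and "fell" mean called. The fit was tested on simulated data. No sequencing depth applies, and the number of arrays limits precision.

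The members and lists were chosen with earlier results of these data known. Values on every array were printed for Myc, Ncl, Npm1, Fbl, Nolc1, the called members, up to 6 in each direction (where fewer than 3 were called, the 4 with the smallest p), with up to 4 genes named from each further list. Array values of Gar1, Mycn, Mga, Zmat3 and Pmaip1 were added after they were seen. Deviations of same-numbered LSK WT and GMP WT arrays from their group means correlated at 0.219, 0.238 and 0.291 over genes, so the numbers were taken to pair these groups, from the data alone. NcstnKO arrays were not paired with GMP WT (-0.092, 0.004 and 0.022). The main fit did not use the pairing, and the block alternative was fitted over all 9 arrays, NcstnKO included. Promoters come from RefSeq, build GRCm38.p6. Alternatives were other scalings, probe set rules, filters, covariates, samples, the block and leaving out each array.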

Additional observations from a re-analysis of the deposited data

How the results depend on the processing

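All 20 alternatives could be run. Members higher in GMP WT than in LSK WT numbered 3 (1360 of 18193 genes). They numbered 10 with quantile normalization (3607 genes) and 30 with 75th percentile centring (5948 genes). Counts were 9 with limma-trend (1465 genes), 1 with the mean of all probe sets (1242 genes) and 1 with labelled sex as a covariate (1059 genes). With label-matching arrays, a setting chosen after seeing the data, the median member difference was 0.09. Leaving out each array gave 0 to 3 higher (905 to 1403 genes) and 0 to 1 lower (4377 to 5699 genes). The only member lower was found without NcstnKO 1, and the median member difference was 0.05 to 0.17. That median was 0.11, 0.19 by quantiles and 0.46 by centring. In GMP NcstnKO against GMP WT, 1 rose and 1 fell. Both counts were 0 by the probe set mean, the 2 groups alone, either sex covariate, the Actb covariate and the replicate block. Over all 18193 genes, the 2 groups alone called 1 higher and 5 lower, either sex covariate 0 and 2, and the Actb covariate 0 and 0. The probe set mean called 260 and 289 genes, and the block 146 and 224. Quantiles left 0 lower. Centring gave 2 higher (621 of 18193 genes). The filter on dim genes gave 2 higher and 3 lower (617 and 802 of 10916), and limma-trend 3 and 5 (579 and 754 of 18193). Leaving out each array gave 0 to 1 either way and a median of -0.07 to 0.0, and the Actb covariate moved the median to -0.16. In GMP NcstnKO against LSK WT, 6 rose and 3 fell. Quantiles gave 11 higher (5439 of 18193 genes), and centring gave 31 higher and 0 lower (7959 and 3205 genes). The Actb covariate gave 3 higher (2047 genes), and the probe set mean gave 5 lower (6160 genes). Label-matching arrays gave a median of 0.15. Leaving out each array gave 4 to 9 higher, always 3 lower and a median of 0.03 to 0.14, the lowest without LSK WT 1. The median was 0.49 by centring and 0.04 with the Actb covariate. The cause of these shifts was not tested.

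Centring also reversed 12 member differences that were below 0 as deposited. Against LSK WT these became 0.26 (Ddx21), 0.33 (Wdr75) and 0.32 (Noc2l) in GMP WT, and 0.02 (Ddx21), 0.36 (Fbl), 0.37 (Nop2), 0.36 (Utp20), 0.31 (Pes1), 0.29 (Ebna1bp2), 0.29 (Rrp1b), 0.27 (Ncl) and 0.35 (Npm1) in GMP NcstnKO. Counting each member under each alternative as 1 case, a further 44, 52 and 36 cases in the 3 comparisons changed sign without being called in either fit. The replicate block changed 4 member calls, among them Nop58 in GMP NcstnKO against LSK WT (adjusted p = 0.0663), with 0.0602 for Nip7 and 0.0513 for Tcof1 against GMP WT. It tied NcstnKO arrays to replicate numbers that showed no pairing with the other groups.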
